A study of Caenorhabditis elegans with 15 samples.

Results

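The genes described are linc-4, linc-7 and linc-29, the long intervening non-coding RNA (lincRNA) genes that are mutated together in the strain 3xlnc, and F13H8.8, the protein-coding gene beside linc-4. They are 4 of the 46904 genes in the deposited tables. The members were chosen by their counts in the mutant strains, where the linc genes lost theirs and F13H8.8 rose beside linc-4, so the values in those strains are given as a description and without a test. RNA of whole adult Caenorhabditis elegans grown on solid medium was sequenced in 15 libraries, 3 for each of 5 genotypes. WT is N2, the standard wild type, and fbf-2 and fbf-1 were each mutant in the gene of that name. The strain 3xlnc had the genotype linc-4; linc-29; linc-7, and fbf-1 3xlnc joined fbf-1 to those alleles. No label names the alleles or how far each deletion extends, and none says whether the 3 libraries of a genotype came from separate cultures, so p-values rest on a spread that may be technical. The molecule label is total RNA for WT, fbf-2 and 3xlnc but polyA RNA for both genotypes with the fbf-1 mutation, and the 2 sets stand in separate tables, so set and genotype cannot be told apart between them.

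LincRNAs are transcripts that lie between protein-coding genes, are spliced and polyadenylated much like mRNAs, and code for no known protein. Some act on neighbouring genes and others elsewhere in the cell, and for most worm lincRNAs no role is known. FBF-1 and FBF-2 are closely related RNA-binding proteins of the PUF (Pumilio) family that repress germline mRNAs and maintain the germline stem cells. In the authors' deposited table linc-4 and linc-7 carry the flag for RNAs bound by FBF-2, as do 2019 of all 46904 genes, and no other of the 170 linc genes does. Neither linc-29 nor F13H8.8 carries that flag. F13H8.8 is flagged as germline-enriched, as are 3059 genes in all and 0 of the 170 linc genes. The sources used here do not define either flag.

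The 4 genes lie on 3 chromosomes of WBcel235. The lincRNA gene linc-4 (WBGene00219306) lies on the plus strand at chrII:6268939-6269516 and has 2 exons of 216 bases in all. F13H8.8 (WBGene00017441) lies on the minus strand at chrII:6265609-6268083, with 1658 bases of annotated exon. These genes start head to head, and 855 bases separate them. On the other side of linc-4, F13H8.2 lies 847 bases away. The largest of the 3 lincRNAs in exon length is linc-7 (WBGene00219609, chrX:16002599-16003728, plus strand), a single exon of 1130 bases. It lies within the span of C09G1.4, a gene of the opposite strand, and overlaps its exons by 0 bases. The gene linc-29 (WBGene00189951, chrIV:6354024-6357243, plus strand) has 3 exons of 629 bases in all. Its nearest gene with abundant counts is smg-3, 5151 bases away.

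Libraries held 9068700 to 38453738 counts, and WT replicate 1 was the shallowest. Ribosomal RNA genes took 4.62% of that library, and 0.516% and 0.976% of the WT replicates 2 and 3. They took 0.265%, 0.164% and 2.81% of the fbf-2 libraries, and 2.51%, 0.395% and 0.373% of the 3xlnc libraries. They took 2.02%, 4.13% and 2.1% of the fbf-1 3xlnc libraries, and 1%, 0.484% and 0.218% of the fbf-1 libraries. These shares overlapped between the sets, though the molecule labels of the sets differ. Results that rest on WT replicate 1 are given with and without that library, except the fold bounds of the deleted genes. Marker genes of sperm, germline, oocyte, hypodermis, intestine, muscle and neuron were all detected, as whole worms should give, and 0 of them were at 0 in any genotype. In libraries with the fbf mutations the targeted transcripts fell to a residue. The fbf-2 transcript was at 6.69 ± 0.601 CPM (counts scaled to a common library total, mean ± SD, n = 3) in fbf-2 against 28.7 ± 3.14 in WT, and fbf-1 was at 8.11 ± 0.289 CPM in fbf-1 against 37.8 ± 2.22 in WT. Reads of these paralogs can match both, so that residue may come from either. The comparison of fbf-1 with WT crosses the sets, so set and genotype cannot be told apart in it.

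The abundant lincRNA was linc-7. In WT its level was 77, 37.9 and 39.6 CPM in the 3 libraries. In fbf-2 it was 34.2, 25.9 and 30.7 CPM, and in fbf-1 it was 39.7, 37.2 and 35.4 CPM. WT replicate 1 stood well above every other library, and the fbf-2 libraries were the low ones, all below the lowest fbf-1 and the lowest WT library. The order of the means was WT (51.5 ± 22.1), fbf-1 (37.4 ± 2.12) and fbf-2 (30.2 ± 4.16). WT and fbf-1 libraries overlapped, and without WT replicate 1 the WT mean was 38.7 CPM. Between fbf-1 and fbf-2 the ranges did not overlap, but these stand in separate sets.

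The other lincRNAs were rarer. For linc-4 the WT libraries held 7.72, 1.65 and 2.11 CPM, from 70, 34 and 42 counts. The fbf-2 libraries held 4.72, 3.81 and 4.03 CPM and the fbf-1 libraries 2.33, 2.58 and 2.76 CPM. WT replicate 1 was the highest of all and the other WT libraries were among the lowest, so the WT range enclosed both mutant groups. The means were 2.56 ± 0.212 in fbf-1, 3.82 ± 3.38 in WT and 4.19 ± 0.472 in fbf-2, and no neighbours in that order separated. For linc-29 the WT libraries held 2.87, 1.26 and 2.26 CPM. In fbf-2 they held 3.22, 2.83 and 2.41 CPM, and in fbf-1 they held 1.11, 1.61 and 1.72 CPM. Neighbouring genotypes in the order of means (fbf-1, WT, fbf-2) again overlapped. Between fbf-1 and fbf-2 the ranges did not overlap for linc-4 (highest fbf-1 library 2.76, lowest fbf-2 library 3.81 CPM). The same held for linc-29 (1.72 and 2.41 CPM), but these genotypes stand in separate sets.

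**Figure D1:**
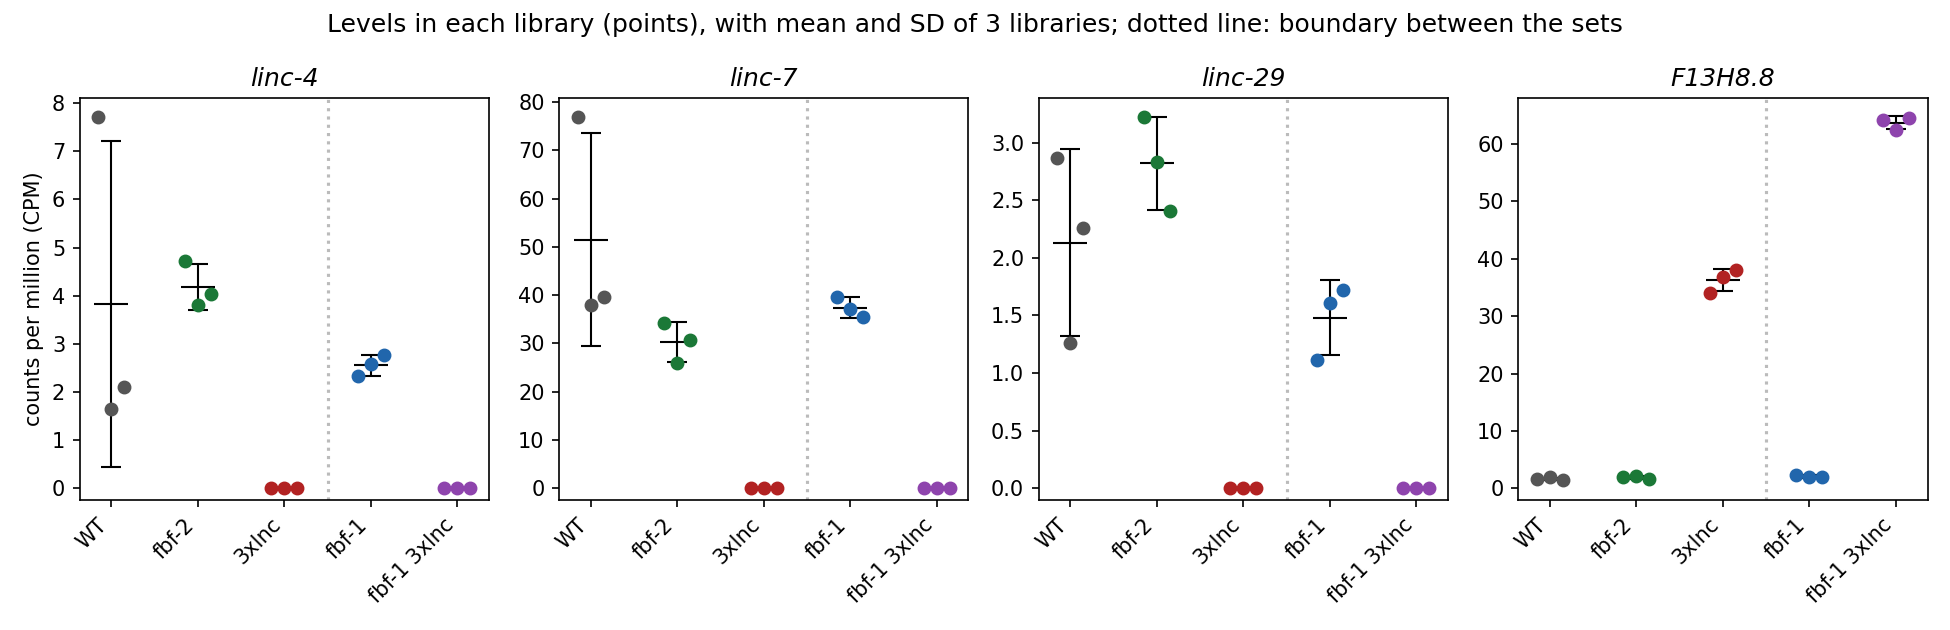
Levels of the 4 genes in CPM (vertical axes, linear, each with its own scale) in the 5 genotypes. Points are libraries and the lines are the mean and SD of 3. The lincRNAs sit at 0 in the 6 libraries of 3xlnc and fbf-1 3xlnc. F13H8.8 sits between 1.51 and 2.37 CPM in the other 9 libraries and between 34.1 and 64.6 CPM in those 6.

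Per length, linc-7 and linc-4 led all 170 linc genes of the tables. Counts were divided by exon length to compare genes. In WT linc-7 was at 45.6 CPM per kilobase, linc-4 at 17.7 and linc-29 at 3.38. In fbf-2 the same levels per kilobase were 26.8, 19.4 and 4.48, and in fbf-1 they were 33.1, 11.8 and 2.35. In all 3 genotypes linc-7 ranked 1 and linc-4 ranked 2 by mean, while linc-29 ranked 11 in WT, 8 in fbf-2 and 12 in fbf-1. The gene next below linc-4 in WT was linc-9, at 11.6 CPM per kilobase. The neighbours of linc-29 in the WT order were linc-20 at 3.78 and linc-16 at 3.31 CPM per kilobase, well within the spread of linc-29 itself (SD 1.29). In WT 105 of the 170 linc genes had any counts. Against all genes with counts in WT, linc-7 stood above 86% of them per kilobase, linc-4 above 72.8%, linc-29 above 55.6% and F13H8.8 above 41.8%. Without WT replicate 1 the order in WT was linc-7 at 34.3 CPM per kilobase, linc-9 at 10.6 and linc-4 at 8.69, so the place of linc-4 above linc-9 in WT rests on that library. The place of linc-29 remained 11.

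**Figure D2:**
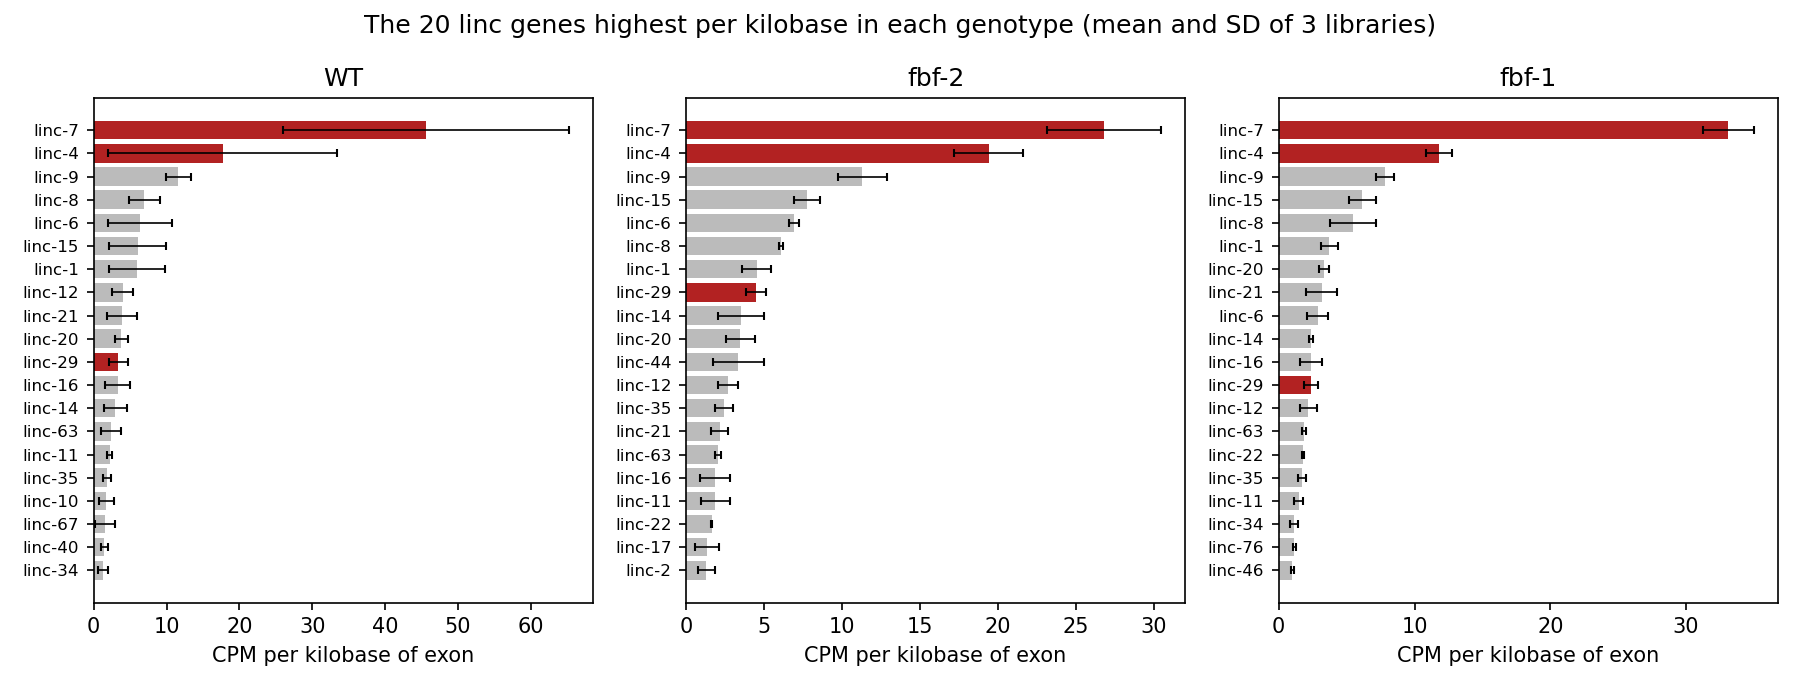
Bars show the 20 linc genes with the highest mean CPM per kilobase of exon in WT, fbf-2 and fbf-1 (linear axes from 0), with the SD of 3 libraries. The bars of linc-7, linc-4 and linc-29 are red. The bars of linc-7 and linc-4 are the longest pair in each genotype, and the error bars of linc-4 and linc-9 overlap in WT.

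The fbf-2 mutant and WT were compared in 6 libraries in which all 4 genes are intact, a contrast that played no part in choosing them. Of the 13401 genes tested, 15.6% passed an adjusted p under 0.05 (5.51% higher and 10.1% lower in fbf-2) and 1 of the 4 did so. With the replicate number as a block 4413 of the 13401 passed, and the calls of the 4 were as without it. Unless the block is named, edgeR values come from the fit without it. The transcript of linc-7 fell in fbf-2 (log2 fold change -0.86, SE 0.232, 95% interval -1.39 to -0.33, edgeR quasi-likelihood adjusted p = 0.04). In the authors' deposited table the same change is -0.81 with an adjusted p of 0.00521. Each fbf-2 library was below each WT library. Without WT replicate 1 the change of linc-7 was -0.51 (edgeR adjusted p = 0.00898). Leaving out WT replicate 3 ended the call (edgeR adjusted p = 0.0675), as did leaving out any single fbf-2 library (0.0897, 0.125 and 0.0916).

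The other lincRNA genes and F13H8.8 did not pass the test in fbf-2. For linc-4 the log2 fold change was 0.19 (SE 0.463, 95% interval -0.87 to 1.24, edgeR adjusted p = 0.809). Without WT replicate 1 the linc-4 change was 1.01 with an edgeR adjusted p of 0.00539, so this library decided the call. For linc-29 the change was 0.34 (SE 0.271, 95% interval -0.28 to 0.96, edgeR adjusted p = 0.412). F13H8.8 gave a change of 0.00 (SE 0.235, 95% interval -0.53 to 0.54, edgeR adjusted p = 0.993). Some marker lists moved between these libraries too, where the median log2 change over all genes tested was -0.04 and 10.1% of them fell. Of 26 sperm markers (major sperm protein genes, which are near-copies and may share reads) 0 rose and 19 fell, with a median of -0.94. Of 9 yolk and intestine markers 0 rose and 4 fell, with a median of -0.77. Of 9 markers of hypodermis and cuticle 2 fell (median -0.35), and of 6 muscle markers 1 fell (median -0.42). Of 6 germline markers 1 fell (median -0.01). None of the oocyte markers (0 of 6, median 0.05) or neuron markers (0 of 6, median -0.17) passed. The part of any of these tissues in the change of linc-7 was not tested.

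In 3xlnc and fbf-1 3xlnc the 3 lincRNAs had 0 counts in each of the 6 libraries. A count of 0 allows up to 0.173 CPM in the shallowest of these libraries and up to 0.0995 CPM in the deepest, for counting error only. Counts were pooled over a group and set against a floor of 3 counts per group. On the pooled WT level, linc-7 was at least 1040-fold lower in 3xlnc, linc-4 at least 66.9-fold and linc-29 at least 44.4-fold. These bounds leave out the spread of the WT level and include WT replicate 1. That library was the highest of WT for each lincRNA and gave 70 of the 146 WT counts of linc-4. Bounds without it would be lower and are not given. They follow the depth and level of each gene and do not rank the deletions. No other well-covered gene lost its counts with them. Of 14657 genes with 50 or more counts over the 9 other libraries, 3 had 0 counts in all 6 libraries, and these were linc-4 (639 counts in the 9), linc-7 (7431) and linc-29 (408). At a minimum of 20 counts the number was 3 of 16332, and at 10 counts it was 7 of 17576, where the next gene, F21D9.8, had 13 counts. Genes with few counts can be at 0 by sampling.

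F13H8.8 went from a rare to a common transcript in both strains that lack the linc genes. WT libraries held 1.65, 1.89 and 1.51 CPM and 3xlnc libraries 34.1, 36.8 and 38 CPM, from 590, 929 and 975 counts. In the other set, libraries of fbf-1 held 2.37, 1.89 and 1.95 CPM and fbf-1 3xlnc libraries 64.1, 62.4 and 64.6 CPM, from 1834, 1777 and 1947 counts. Every library without the linc genes was far above every library with them, and the replicates of a genotype lay close together. The means were 1.68 ± 0.192 in WT and 36.3 ± 2.01 in 3xlnc, then 2.07 ± 0.264 with the fbf-1 mutation and 63.7 ± 1.15 with all 4 mutations. WT, fbf-2 (1.92, 2.18 and 1.53 CPM) and fbf-1 overlapped, 3xlnc came next, and fbf-1 3xlnc was highest with no overlap.

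Its log2 fold change was 4.37 (SE 0.155, a 20.7-fold difference) in 3xlnc against WT and 4.95 (SE 0.0711, 31-fold) in fbf-1 3xlnc against fbf-1. These contrasts share no libraries. Without WT replicate 1 the first was 4.32. In the authors' deposited table the values are 4.35 and 4.95. By size of rise F13H8.8 ranked 10 of 13861 genes tested in the first and 3 of 14104 in the second. Per kilobase it stood above 41.8% of genes with counts in WT and above 76% in 3xlnc. In the other set these shares were 47.3% and 85.1%. In the fbf-1 3xlnc libraries it reached 38.4 CPM per kilobase, against 33.1 for linc-7 in fbf-1.

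Fitted over 12 libraries, the log2 change of F13H8.8 in 3xlnc minus that in fbf-1 3xlnc was -0.60 (SE 0.176), and over the alternatives it ranged from -0.7 to -0.43. This too is a description, since it is made of the values by which the gene was chosen. The backgrounds stand in separate tables with separate molecule labels, so the fbf-1 mutation and the set cannot be told apart.

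The sums of sperm and of muscle markers were also higher in both strains that lack the linc genes. The summed level of the 26 major sperm protein genes was 206 to 306 CPM in WT libraries and 392 to 541 in 3xlnc libraries. In the other set it was 98.8 to 166 CPM with fbf-1 alone and 222 to 527 with the linc mutations added. Of the 26 genes 0 were at 0 in any genotype. In 3xlnc 23 of 26 rose, with a median log2 change of 0.94. In fbf-1 3xlnc 25 of 26 rose, with a median of 1.32. In fbf-2, where the sum was 101 to 158 CPM, F13H8.8 was at its WT level. The 6 germline markers summed to 2070 to 2610 CPM in WT and 2120 to 2280 in 3xlnc, and 0 of 6 passed there by edgeR's test. In fbf-1 3xlnc 1 of the 6 fell. The 6 muscle markers summed to 4690 to 7250 CPM in WT libraries and 8760 to 9550 in 3xlnc libraries. In the other set they summed to 5410 to 5520 and 5900 to 7460 CPM. In each contrast 1 of the 6 rose, where 9.41% (3xlnc) and 9.43% (fbf-1 3xlnc) of all genes did. The 9 hypodermis and cuticle markers summed to 8640 to 10800 CPM in WT libraries and 10900 to 11000 in 3xlnc libraries, and in the other set their sums overlapped. Of 6 oocyte markers 0 passed in either contrast. Of 6 neuron markers 0 passed in 3xlnc, and 1 fell in fbf-1 3xlnc. Of 9 yolk and intestine markers 0 passed in 3xlnc, while 1 rose and 2 fell in fbf-1 3xlnc. The part of any of these tissues in the rise of F13H8.8 was not tested. In whole worms, more cells of a type and more RNA per cell cannot be told apart.

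Genes with the pattern most like that of F13H8.8 were looked for over the 15 libraries, each centred on its own mean log2 level. Likeness was the root mean square difference of log2 CPM, and 10356 genes had enough counts. The nearest was lron-14, which codes for an extracellular leucine-rich repeat protein, at 0.93, then plep-1 at 1.21 and C17H12.8 at 1.44, where F13H8.8 itself varied by 2.31. Mean levels of lron-14 were 1.54 CPM in WT and 12.8 in 3xlnc, 1.48 in fbf-2, and 2.16 and 12.5 in the pair with the fbf-1 mutation. Those of plep-1 were 0.741, 6.19, 0.942, 2.05 and 6.27 CPM in the same order. C17H12.8 was more abundant, at 52.6 CPM in WT, 128 in 3xlnc and 22.6 in fbf-1. All 3 were high in the same 2 genotypes as F13H8.8 and rose by less. They were picked for likeness over these same libraries, so the shared pattern follows from the choice.

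**Figure D3:**
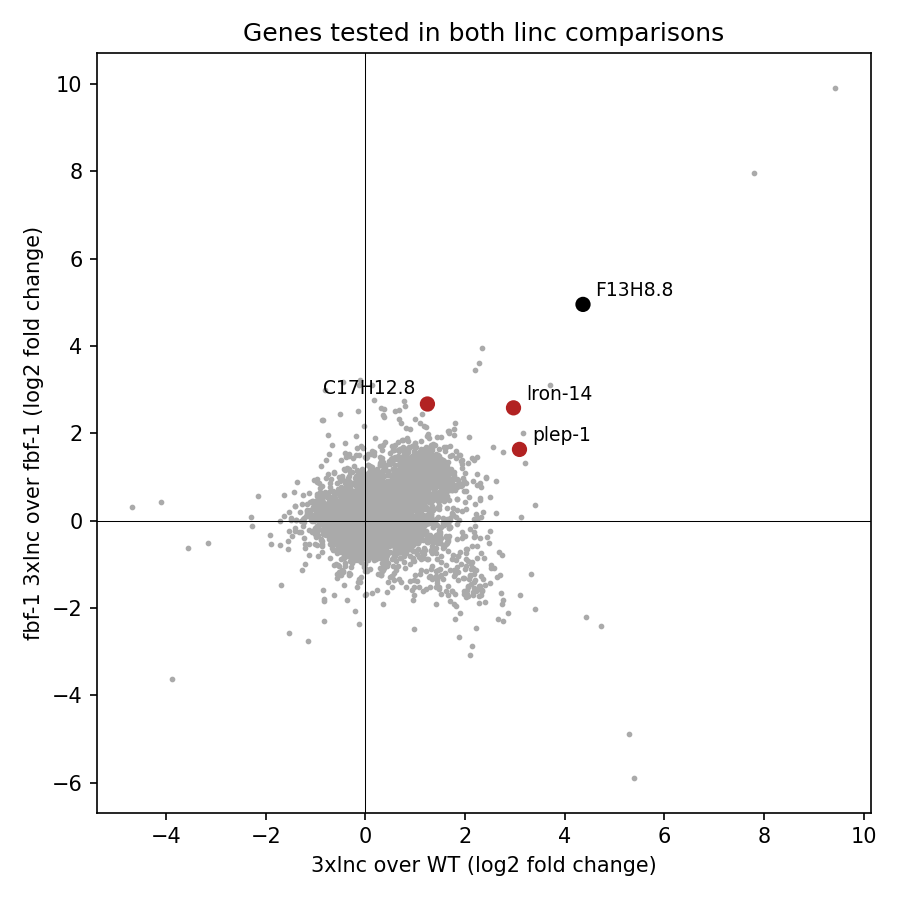
Each point is a gene tested in both contrasts, with its log2 fold change in 3xlnc over WT on the horizontal axis and in fbf-1 3xlnc over fbf-1 on the vertical axis. The linc genes are left out. F13H8.8 (black) lies at 4.37 and 4.95, and lron-14, plep-1 and C17H12.8 (red), the genes of most similar pattern, lie nearer the mass of genes.

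For the lincRNAs likeness was taken over the 9 libraries in which they are intact, among 10041 or 10042 genes. The nearest to linc-4 were D1065.6 (0.15), F25B4.4 (0.18) and urm-1 (0.18), a ubiquitin-related modifier gene, where linc-4 itself varied by 0.56. The nearest to linc-7 were Y119D3B.21 (0.11), the gut granule gene glo-3 (0.11) and dod-23 (0.15), with 0.41 for linc-7. The nearest to linc-29 were C53A5.16 (0.15), C26F1.3 (0.16) and K10B2.4 (0.17), with 0.43 for linc-29. The likeness of linc-4 and linc-7 to these genes includes the high value of WT replicate 1. All 3 nearest to linc-7 had their lowest mean in fbf-2, for example 62.2 CPM for dod-23 against 118 in WT and 72.8 in fbf-1. They were picked for likeness to linc-7 over these same libraries, where linc-7 was lowest in fbf-2. The shared low thus follows from the choice and is no separate result.

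Within 25 kb of the 3 linc genes lie 57 other annotated genes, and the share of them that passed the test was near or below that of all genes. In 3xlnc 28 of them were tested and 3 passed, all of them higher, where 11.5% of all 13861 genes did (9.41% higher and 2.11% lower). In fbf-1 3xlnc 29 were tested and 2 passed, where 17.9% of all 14104 genes did (9.43% higher and 8.49% lower). The median log2 change of the tested neighbours was -0.11 in 3xlnc (all genes -0.02) and 0.00 in fbf-1 3xlnc (all genes 0.00). Within 10 kb 8 were tested and 0 passed in either contrast by edgeR's quasi-likelihood test or by DESeq2. At an unadjusted p under 0.05 these counts were 0 of 8 in 3xlnc and 6 of 8 in fbf-1 3xlnc. The share of all genes at that unadjusted p is not given here. So these counts, and the like counts below, cannot be read against a background. In fbf-2, where the linc genes are intact, 3 of 29 neighbours passed, against 15.6% of all genes, and with the replicate block 7 of 29 did, against 4413 of 13401. Of 31 neighbours tested for a difference between the backgrounds 2 passed, both higher in 3xlnc, where 6.2% of all 14772 genes did (3.66% higher and 2.54% lower).

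The gene on the far side of linc-4 from F13H8.8 is F13H8.2. It was at 114 ± 13.7 CPM in WT and 107 ± 8.3 in 3xlnc (log2 -0.13, 95% interval -0.38 to 0.12, edgeR adjusted p = 0.449). In the other set F13H8.2 went from 116 ± 1.5 CPM to 110 ± 2.88 (log2 -0.06, 95% interval -0.15 to 0.02, edgeR adjusted p = 0.275). Of the genes that flank linc-4 at similar distances, F13H8.8 was 20.7-fold and 31-fold higher in the strains without linc-4, and F13H8.2 did not pass the test. Since F13H8.8 was chosen for that rise and F13H8.2 was not, the difference between them is a description only. F13H8.3, 3363 bases on the side of F13H8.8, gave -0.33 and 0.19 (edgeR adjusted p = 0.267 and 0.0814). Next on that side, F13H8.12 had 120 counts over all 15 libraries. The non-coding genes F13H8.13 and F13H8.14 had 0 counts.

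Around linc-7 3 neighbours could be tested, and by edgeR and DESeq2 0 passed in either contrast (0 and 2 at an unadjusted p under 0.05). C09G1.4, which spans linc-7, was at 5.23 ± 1.07 CPM in WT and 4.79 ± 0.472 in 3xlnc (log2 -0.20, SE 0.201, edgeR adjusted p = 0.508). In the other set C09G1.4 went from 4.09 ± 0.339 CPM to 5.56 ± 0.932 (log2 0.45, SE 0.148, edgeR adjusted p = 0.0645). VB0395L.1, 9333 bases away, gave 0.16 and 0.47 (edgeR adjusted p = 0.626 and 0.0845). The other near genes, T22E6.1, C09G1.6, VB0395L.2 and VB0395L.3, had 0 or 1 counts over 15 libraries and C09G1.3 had 56.

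Around linc-29 the nonsense-mediated decay gene smg-3 gave -0.11 in 3xlnc and -0.11 in fbf-1 3xlnc (edgeR adjusted p = 0.473 and 0.22). Its other near genes were Y73B6BL.14 with 359 counts over 15 libraries, Y73B6BL.47 with 94, and Y73B6BL.289, Y73B6BL.286 and the piRNA 21ur-14891 with 2, 6 and 2.

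The neighbours that passed lay farther off. In 3xlnc F13H8.5, 12814 bases from linc-4, rose from 1.43 ± 0.841 to 5.55 ± 0.684 CPM (log2 1.87, SE 0.36, edgeR adjusted p = 0.0126). The collagen gene bli-6, 19821 bases from linc-29, rose from 16 ± 1.95 to 47.1 ± 8.27 CPM (log2 1.52, SE 0.168, edgeR adjusted p = 0.00143). The pyrimidine breakdown gene upb-1, 18895 bases from linc-4, rose from 148 ± 15.5 to 214 ± 18.5 CPM (log2 0.50, SE 0.1, edgeR adjusted p = 0.0144). In fbf-1 3xlnc upb-1 rose by log2 0.15 (edgeR adjusted p = 0.0337), and hrpf-2, which codes for an RNA-binding protein of the hnRNP F family, fell by 0.21 (edgeR adjusted p = 0.0133). The count of neighbours called in 3xlnc was 7 without WT replicate 1, 5 without WT replicate 2 and 1 without 3xlnc replicate 1. In fbf-1 3xlnc it was 6 without fbf-1 3xlnc replicate 1 and 1 without any single other library. The call of upb-1 was lost in 3xlnc without WT replicate 3 or 3xlnc replicate 1 or 3 (edgeR adjusted p = 0.0748, 0.0776 and 0.0908), that of F13H8.5 without 3xlnc replicate 1 (0.0529), and that of hrpf-2 without fbf-1 3xlnc replicate 3 (0.0515). In fbf-1 3xlnc the call of upb-1 was lost without fbf-1 replicate 1, 2 or 3 (edgeR adjusted p = 0.102, 0.101 and 0.0593) and without fbf-1 3xlnc replicate 2 (0.0908).

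**Figure D4:**
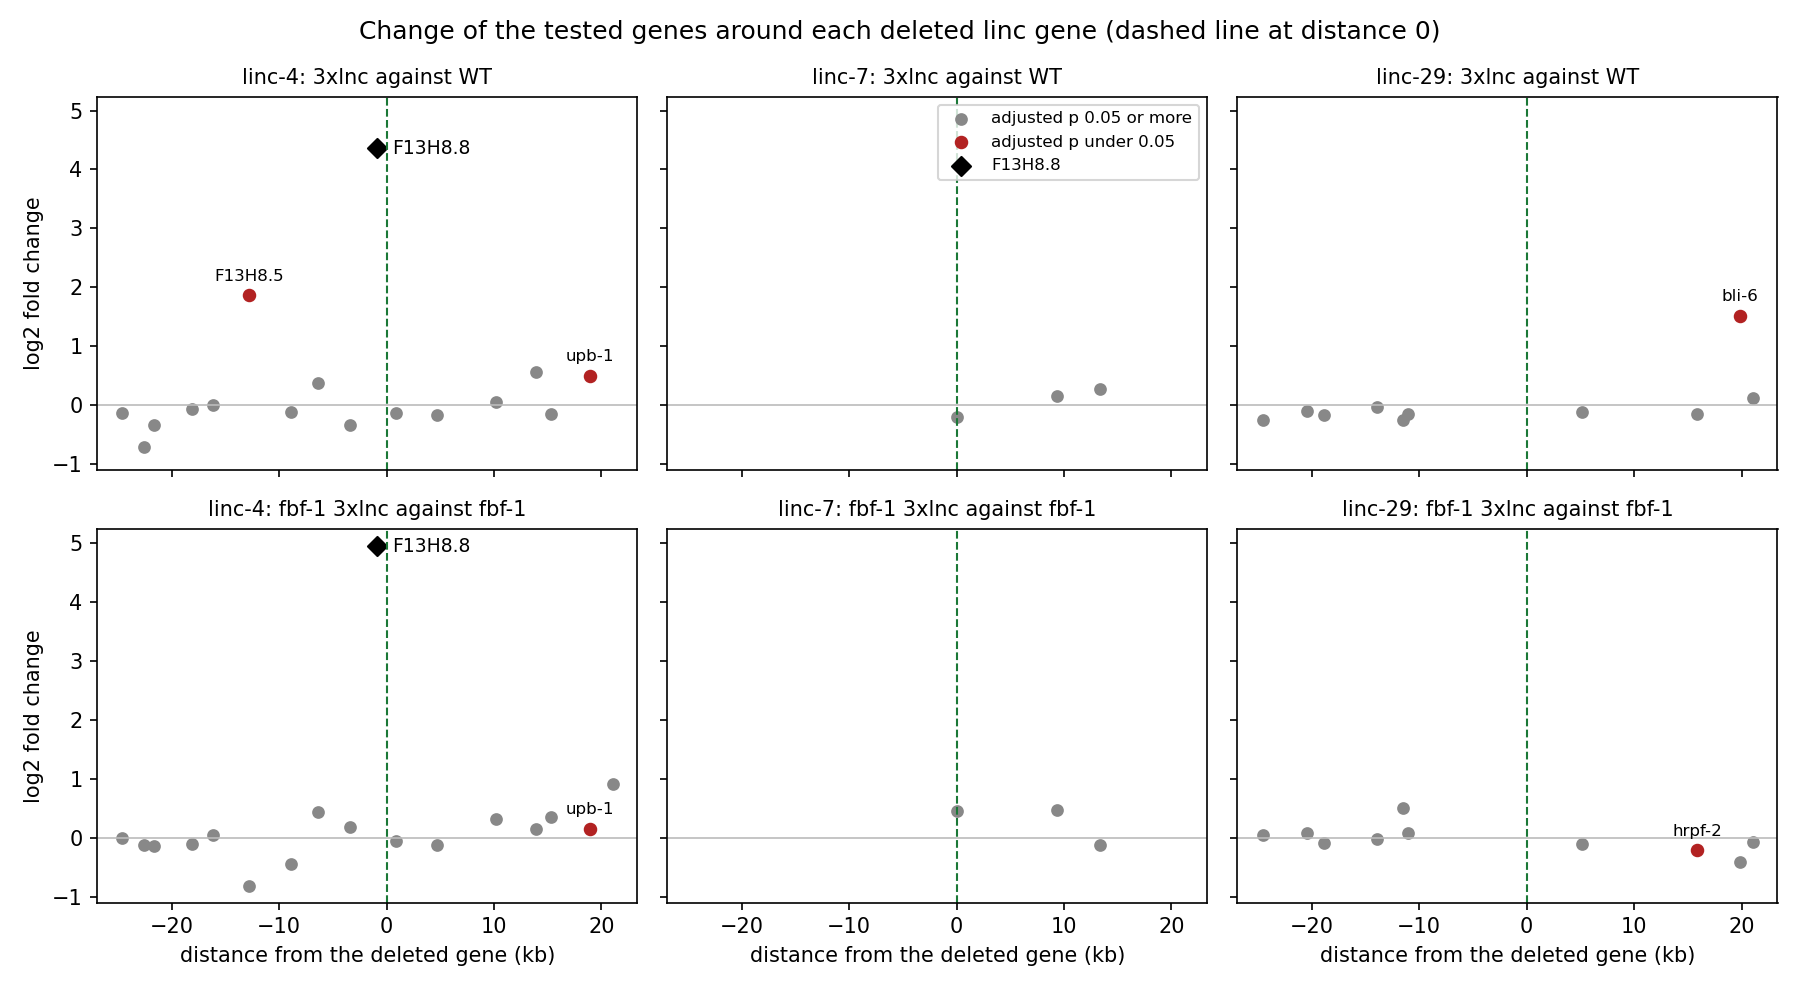
Log2 fold change (vertical axis) of each tested gene within 25 kb of linc-4, linc-7 or linc-29 against its distance from that gene in kilobases (horizontal axis, negative to the left on the chromosome), in 3xlnc over WT (top) and fbf-1 3xlnc over fbf-1 (bottom). Red marks an adjusted p under 0.05, and F13H8.8 is the black diamond. F13H8.8, chosen for its rise in these strains, stands at 4.37 and 4.95. On the other side F13H8.2 stands at -0.13 and -0.06.

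The other 167 linc genes mostly had too few counts to test. In 3xlnc 22 were tested and 1 passed by edgeR, where 11.5% of all genes passed by edgeR. By DESeq2 2 passed, and 6 had an unadjusted p under 0.05. Shares of all genes by DESeq2 or at an unadjusted p are not given here. Such counts, here and below, cannot be read against a background. The edgeR call was linc-9, which fell from 5.38 ± 0.801 to 3.43 ± 0.188 CPM (log2 -0.67, SE 0.171, edgeR adjusted p = 0.0358), a call kept in 6 of 12 alternatives. In fbf-1 3xlnc linc-9 gave -0.10 (edgeR adjusted p = 0.66), and 0 of 21 linc genes passed by edgeR or DESeq2 (4 at an unadjusted p under 0.05), where 17.9% of all genes passed by edgeR. In fbf-2 0 of 18 passed by either tool (1 at an unadjusted p under 0.05), where 15.6% of all genes passed by edgeR.

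The regulators, partners and targets around the FBF proteins were taken as a list of 24 genes, all tested in each contrast. In fbf-2 3 rose and 2 fell, where 15.6% of all genes passed, with a median log2 change of 0.01 (all genes -0.04). The fbf-2 transcript fell by 2.24, but it is the mutated gene, so its call says nothing about the list. The gene fog-3, which directs germ cells to sperm fate, rose by 3.25 from only 23 counts over the WT libraries. The transcript of fbf-1 rose by 0.78, and reads of these paralogs can match both. In 3xlnc 1 of 24 rose and 2 fell, where 11.5% of all genes passed, with a median of -0.24 (all genes -0.02). There fog-3 rose from 0.56 ± 0.386 to 2.72 ± 0.458 CPM (log2 2.43, SE 0.39, edgeR adjusted p = 0.0064). The stem cell gene lst-1 fell by 0.39 and the PUF gene puf-8 by 0.34 (edgeR adjusted p = 0.0273 and 0.0327). In fbf-1 3xlnc 1 rose and 2 fell, where 17.9% of all genes passed, with a median of -0.05 (all genes 0.00). The poly(A) polymerase gene gld-2 rose by 0.16, and the sperm fate genes fog-1 and fog-3 fell by 0.30 and 0.38 (edgeR adjusted p = 0.0262, 0.0189 and 0.0483). The 3xlnc calls of lst-1 and puf-8 were kept in 6 and 4 of 12 alternatives. The fbf-1 3xlnc calls of gld-2, fog-1 and fog-3 were kept in 8, 10 and 3 of 13 alternatives.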

How the data were processed

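The authors deposited raw counts per gene in 3 tables for 46904 gene identifiers, along with their own log2 fold changes, adjusted p-values and flags, per the file headers. The submitters' processing notes name STAR 2.7.9a, featureCounts, Subread 2.0.1, DESeq2 1.34.0 and the build WBcel235. No source used here gives the annotation release, strand setting or rule for reads with several matches, so near-copies are uncertain. The authors' log2 fold changes and p-values are quoted only where the deposited table is named. Columns of normalised values, 18 in number, were left aside. Gene names that had been turned into dates were read from the fbf-1 set's table. Columns of fbf-1 3xlnc were matched to that genotype only, so their numbers merely tell libraries apart. Positions came from the WBcel235 annotation, release 115 (46817 of 46904 identifiers found). RNA was extracted with TRIzol and a Zymo Direct-zol kit and made into libraries with a KAPA mRNA kit, per the labels' protocols.

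Levels are CPM of total counts. Tests used edgeR 4.0.16 in R 4.3.3 (filterByExpr, TMM scaling, glmQLFit and glmQLFTest) on the raw counts of the 6 libraries of a contrast, or 12 for the interaction of deletion and background, with Benjamini-Hochberg adjustment over all genes tested and a threshold of 0.05. The SE is the absolute log2 fold change divided by the square root of F, and intervals are 95%. Likeness used log2 CPM with a prior count of 2 among genes with a mean of 50 counts or more. The procedure was tested on simulated data. The members, lists and tests were chosen with earlier results of these data known. The genes named are the members, the 3 nearest genes on each side of each linc gene, neighbours past the threshold, genes without counts in the deleted strains, the 3 genes of most similar pattern, at most 3 FBF network genes a contrast, and linc genes next in level; F21D9.8, linc-9 and the genes named in the closing section were added after their values were seen. Contrasts were refitted with RLE or upper-quartile scaling, with other filters, with DESeq2 1.42.0 and without each library, and the 6-library contrasts also with a replicate block. Neighbours were also counted within 10 and 50 kb, and levels were also taken with TMM library sizes, without ribosomal RNA counts and without each library. Every pair of libraries of a genotype differed by more than sampling noise (chi-square of at least 5.83 per degree of freedom). Same-numbered WT and fbf-2 libraries deviated together from their group means (correlations 0.59, 0.378 and 0.386 across 9737 genes). The main fbf-2 fit carried no block, so its p-values ignore that pairing, and the refit with the block is given beside it. A search of the lincRNA sequences for FBF binding elements was planned and was not analysed here. Floors of 3 counts cover counting error only.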

Additional observations from a re-analysis of the deposited data

Results flagged for a closer look

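The change of bli-6, a collagen gene 19821 bases from linc-29, differed between the backgrounds by 1.92 on the log2 scale (SE 0.378, edgeR interaction adjusted p = 0.00849). It was 1.52 in 3xlnc against WT and -0.41 in fbf-1 3xlnc against fbf-1. In the same interaction 3 of 9 markers of hypodermis and cuticle were higher and 0 lower, where 3.66% of all genes were higher. Their median was 1.43 against -0.04 over all genes. Of 6 muscle markers 1 was higher, and 0 passed among the sperm, yolk and intestine, germline, oocyte and neuron markers. A link between bli-6 and any of these tissues was not tested.

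The change of F13H8.5, 12814 bases from linc-4, differed between the backgrounds by 2.67 on the log2 scale (SE 0.644, edgeR interaction adjusted p = 0.0244). It was 1.87 in 3xlnc against WT and -0.81 in fbf-1 3xlnc against fbf-1. These were 2 of the 31 neighbours tested for the difference, where 6.2% of all genes passed. The fbf-1 mutation and the set of libraries cannot be told apart.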

How the results depend on the processing

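The rise of F13H8.8, by which the gene was chosen, kept its direction and size under every alternative run. F13H8.8 ranged from 4.26 to 4.54 in 3xlnc (12 alternatives) and from 4.9 to 5.05 in fbf-1 3xlnc (13). Its level in fbf-1 3xlnc was 66.6 CPM with TMM library sizes and 65.5 without ribosomal RNA counts. With single libraries left out, its difference in log2 change between the backgrounds ranged from -0.70 to -0.43, the fbf-2 change of linc-4 from -0.16 to 1.01 and that of linc-7 from -0.99 to -0.51. Genes called then numbered 698 to 5003 (fbf-2), 395 to 4764 (3xlnc), 1140 to 2720 (fbf-1 3xlnc) and 545 to 2763 (difference between backgrounds). Neighbours called ranged from 0 to 9, 1 to 7, 1 to 6 and 1 to 5 in that order, and the cause was not tested. The highest counts in fbf-2, 3xlnc and the difference between backgrounds were those without WT replicate 1. With the replicate block 4413 genes and 7 neighbours were called in fbf-2, and linc-7 stayed called (-0.83, adjusted p = 0.000615). In 3xlnc same-numbered libraries did not pair (correlations 0.0177, 0.157 and -0.121 across 10157 genes). The fbf-1 3xlnc column numbers fit the titles or, with 1 and 3 exchanged, the library names, so a block was run for each reading, chosen after seeing the data. It called 2752 genes and 4 neighbours by titles (correlations 0.0901, -0.284 and 0.352 across 10633 genes) and 989 and 1 by library names (-0.0857, -0.284 and -0.4), and neither reading met the rule for pairs. In 3xlnc 0 neighbours passed within 10 kb and 5 within 50 kb. In fbf-1 3xlnc 0 passed within 10 kb, 3 within 50 kb, and 4 with upper-quartile scaling. Depth limits linc-4 and linc-29, which had 146 and 97 counts over the 3 WT libraries.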
